A study of Mus musculus with 9 samples.

Results

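The 10 genes followed here in dendritic cells (DCs) serve the MHC class I antigen presentation pathway. They are the classical heavy chain genes *H2-K1* and *H2-D1*, the light chain gene *B2m*, the peptide transporter genes *Tap1* and *Tap2*, the tapasin gene *Tapbp*, the immunoproteasome genes *Psmb8*, *Psmb9* and *Psmb10*, and the transactivator gene *Nlrc5*. Members were taken as the genes of the deposited counts whose symbol equals 1 of these names, which gave 10 of 55471 genes, and all 10 of 10 were among the 16260 genes that passed the filter on low counts. The DCs were grown from bone marrow of wild-type (WT) mice in GM-CSF, a growth factor that yields DCs from marrow progenitors, and the methods of the study name female C57BL/6 mice aged 8 to 20 weeks. After 6 h the cells were collected unstimulated, activated with 100 ng/mL LPS, a bacterial outer membrane component sensed by a Toll-like receptor, or treated with 1000 U/mL of the type I interferon IFN-β. There were 3 libraries in each of these 3 groups, lettered A, B and C. Nothing in the sample descriptions says that the letters stand for separate mice or cultures, so p-values measure the spread between these libraries, which may be technical.

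Class I molecules display peptides from inside the cell to CD8+ T cells. Proteasomes cut proteins into peptides, the TAP transporter carries them into the endoplasmic reticulum, and tapasin holds the transporter next to an empty heavy chain and β2-microglobulin until a peptide is bound. Interferons are known to replace the catalytic subunits of the standard proteasome with those of the immunoproteasome, and NLRC5 is a regulator that acts at class I promoters together with the RFX, CREB and NF-Y factors.

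Of the 10 genes, 7 lie in the MHC on mouse chromosome 17 (GRCm38, GENCODE M21 annotation), within 1351.601 kb from *Tapbp* to *H2-D1*. *H2-K1* is annotated at chr17:33996017-34000347 on the minus strand and *H2-D1* at chr17:35262730-35267499 on the plus strand. *Psmb9*, *Tap1*, *Psmb8* and *Tap2* sit side by side in 34.335 kb, and *Psmb9* and *Tap1* point away from each other. Outside the MHC, *B2m* is at chr2:122147686-122153083, *Psmb10* at chr8:105935735-105938444 and *Nlrc5* at chr8:94434356-94527272.

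Promoter windows of 250 bases before to 50 bases after the start site (RefSeq, GRCm38.p6) were found for 8 of the 10 genes. No window was found for *Tap2* and *Nlrc5*. Each window was searched on both strands for the interferon-stimulated response element (ISRE, here GAAA, 2 bases of any kind, GAAA), a relaxed ISRE (GAA, 2 bases of any kind, GAAA) that was added after the *H2-K1* and *H2-D1* sequences had been seen, the GAS element (TTC, 3 bases of any kind, GAA), the κB site by its usual consensus, and CCAAT. The stretches below are shown because they hold every ISRE, relaxed ISRE, GAS and κB match in the 8 windows, with the matched bases in capitals, and the CCAAT match lying between *Tap1* and *Psmb9*. Each is written 5′ to 3′ on the strand of its gene, and that of *Tap1* and *Psmb9* on the plus strand.
H2-K1, κB and relaxed ISRE, chr17:34000429-34000458, minus strand: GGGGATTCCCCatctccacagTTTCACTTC
H2-D1, κB and relaxed ISRE, chr17:35262923-35262952, plus strand: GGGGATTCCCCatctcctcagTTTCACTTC
B2m, ISRE and κB, chr2:122147545-122147573, plus strand: catGAAACTGAAAatgGGAAAGTCCCttt
Psmb8, GAS, chr17:34198088-34198116, plus strand: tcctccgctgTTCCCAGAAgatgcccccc
Tap1 and Psmb9, CCAAT, chr17:34187322-34187350, plus strand: gggctcggctttCCAATcagcggctgcgc

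The stretches of *H2-K1* and *H2-D1* were identical at 29 of 30 positions. In each of them the κB letters matched in 2 positions shifted by 1 base, and the relaxed ISRE was read on the opposite strand. It lay at -104 to -96 from the more downstream RefSeq start site of *H2-K1*, or -90 to -82 from the more upstream one. In *H2-D1* it lay at -150 to -142. In *B2m* the ISRE lay at -139 to -130 and the κB match at -126 to -117. The *B2m* stretch is intronic in an annotated transcript of *Patl2*, the *H2-K1* stretch lies in no annotated transcript, and those of *H2-D1*, *Psmb8* and *Psmb9* fall in an untranslated exon of a longer GENCODE transcript of the same gene. The RefSeq start sites of *Tap1* and *Psmb9* are 225 bases apart, and their windows share 275 bases.

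An ISRE was present in 1 of 8 windows, against 3.44% of all 32851 promoter windows, and a relaxed ISRE in 2 of 8, against 7.52%. The relaxed ISRE was written after the sequences holding it had been seen, so its 2 of 8 cannot be read against that share. The GAS letters were present in 1 of 8 windows, against 8.3%, and a κB match in 3 of 8, against 8.46%. CCAAT was found in 6 of 8 windows, against 37.4%. Each of the 8 genes was counted once, and the 2 windows of *H2-K1* hold the same motifs, whereas each share is over all windows. The matches of *Tap1* and *Psmb9* are the same site, counted in both of their overlapping windows. The stretches of *H2-K1* and *H2-D1*, identical at 29 of 30 positions, hold the relaxed ISRE matches and every κB match outside *B2m*. The 8 windows are thus not independent of each other. The window of *Psmb10* held no match. A match describes letters, not binding of a factor, and a missing match says only that these letters are not in this window.

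**Figure D1:**
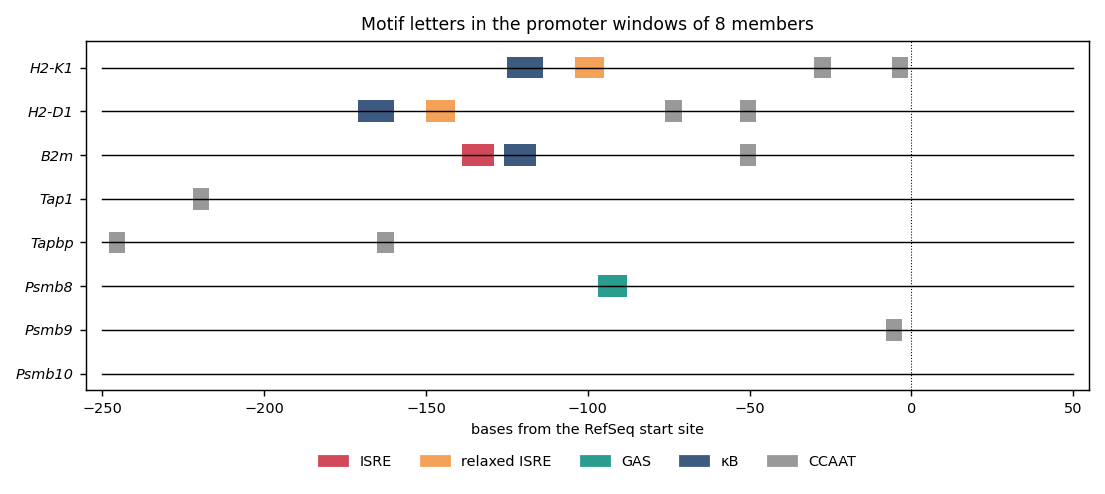
Position of the motif letters in the promoter windows of 8 genes, in bases from the RefSeq start site (dotted line), with 1 colour for each motif. For *H2-K1* the more downstream start site is used. *H2-K1*, *H2-D1* and *B2m* hold a κB match next to an ISRE or relaxed ISRE, *Psmb8* holds the only GAS match, and *Psmb10* holds none.

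Total counts on genes were 33425803 to 43735199 per library. Expression is given as CPM, counts scaled to a common library size with TMM, a correction for composition, whose factors were 1.18 to 1.26 in unstimulated, 0.783 to 0.841 in LPS-activated and 0.977 to 1.02 in IFN-β-treated DCs. All 8 DC and macrophage markers were present in each group, with summed CPM of 5680 to 6790 in unstimulated, 6810 to 7740 in LPS-activated and 6170 to 6490 in IFN-β-treated DCs. With LPS 5 of the 8 rose and 1 fell in edgeR's test, and with IFN-β their log2 fold changes were -0.19 to 0.15. Marker sums of the other cell types reached at most 21.2 CPM (neutrophils and their precursors, 8.6 to 21.2), and fibroblast markers, of which 1 of 3 rose with LPS, summed to 1.21 to 2.48 CPM in unstimulated and 2.13 to 5.2 CPM in LPS-activated DCs. Bulk RNA cannot tell apart fewer cells of a type from less RNA per cell. The stimulation was visible in *Isg15*, an interferon-induced ubiquitin-like protein, at 8.8 to 35.8 CPM without stimulation, 773 to 1002 CPM with LPS and 402 to 451 CPM with IFN-β, whereas the cytokine genes *Il12b* and *Il6* reached means of 3615 and 1629 CPM with LPS and 4.28 and 4.96 CPM with IFN-β.

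All 10 class I genes rose with LPS and all 10 rose with IFN-β. Calls were made at a Benjamini-Hochberg adjusted p under 0.05 over all tested genes in edgeR's quasi-likelihood test, by which 32.8% of all tested genes were higher and 35.4% lower with LPS, and 23.6% were higher and 23.3% lower with IFN-β. The median log2 fold change of the 10 genes was 1.77 with LPS (range 0.89 to 2.74) and 1.36 with IFN-β (range 0.67 to 2.07), where the median over all tested genes was -0.04 and -0.02. Every LPS library lay above every unstimulated library for 10 of 10 genes, as for 34.6% of tested genes, and every IFN-β library did so for 10 of 10, as for 28.5%. The LPS and IFN-β comparisons share the unstimulated libraries and are not independent of each other.

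**Figure D2:**
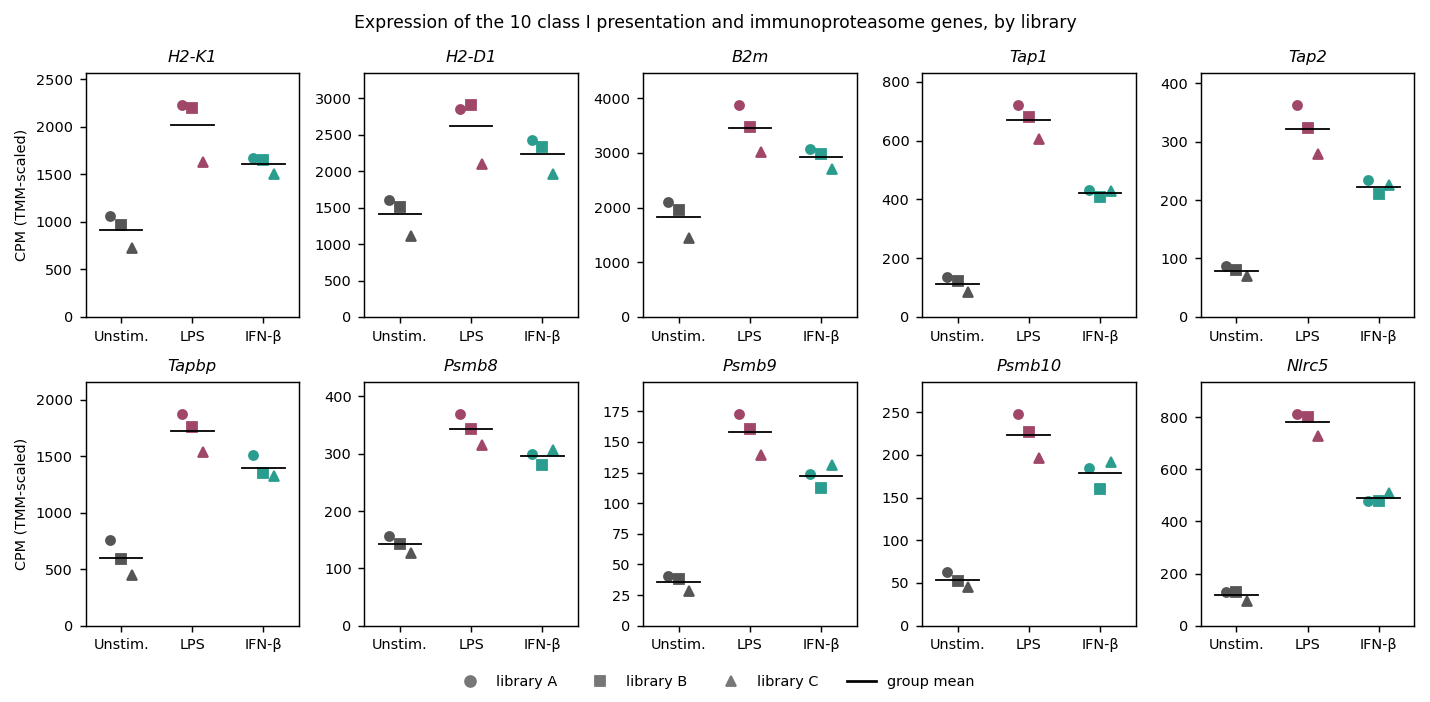
TMM-scaled CPM of each of the 10 genes in the 9 libraries, with 1 panel for each gene, a linear axis from 0, symbols for library letters and a line for the group mean (n = 3). The unstimulated libraries lie below all stimulated libraries in every panel, and library C is the lowest of the unstimulated and of the LPS libraries in each.

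The heavy and light chain genes were the most abundant members per kilobase and had the smallest log2 fold changes. *H2-K1*, which encodes the K heavy chain, was at 1067, 964 and 727 CPM in unstimulated libraries A, B and C, at 2230.0, 2195 and 1635 CPM with LPS, and at 1673, 1651 and 1506 CPM with IFN-β. *H2-D1*, which encodes the D heavy chain, was at 1609, 1513 and 1111 CPM without stimulation, at 2859, 2910.0 and 2096 CPM with LPS, and at 2424, 2334 and 1958 CPM with IFN-β. *B2m*, the light chain shared by all class I molecules, was at 2099.8, 1950.2 and 1443 CPM, at 3875, 3467 and 3009.5 CPM with LPS, and at 3062, 2988 and 2699 CPM with IFN-β. For all 3 genes the unstimulated libraries were separate from the stimulated ones, whereas the LPS and IFN-β libraries overlapped. *H2-K1* rose 2.20-fold with LPS (log2 1.14 ± 0.16 SE, adjusted p = 7.32e-05, edgeR) and 1.75-fold with IFN-β (0.81 ± 0.16, adjusted p = 0.00167). *H2-D1* rose 1.86-fold (0.89 ± 0.17, adjusted p = 0.000696, edgeR) and 1.59-fold (0.67 ± 0.17, adjusted p = 0.00765). Of the 100-base windows of *H2-D1* transcripts, 4.64% also occur in another gene, most often *H2-Q1*, and none of those of *H2-K1* and *B2m* do. *B2m* rose 1.88-fold with LPS (0.91 ± 0.15, adjusted p = 0.000244, edgeR) and 1.59-fold with IFN-β (0.67 ± 0.15, adjusted p = 0.00367).

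Together *H2-K1*, *H2-D1* and *B2m* took 0.564%, 0.550% and 0.414% of all counts in unstimulated libraries A, B and C. That share was 0.702%, 0.717% and 0.567% with LPS and 0.699%, 0.711% and 0.606% with IFN-β. The lowest stimulated library was thus just above the highest unstimulated one, and the exact two-sided permutation test over 3 against 3 libraries gave p = 0.1 for both stimuli, the smallest value it can give. Between LPS and IFN-β the mean share differed by 0.00999 percentage points (exact permutation p = 0.9).

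The transporter genes rose more than the heavy chains in log2 terms. *Tap1*, a transporter subunit, was at 135, 123 and 83.1 CPM without stimulation, at 721, 681 and 605 CPM with LPS and at 431, 408 and 427 CPM with IFN-β. *Tap2*, its partner subunit, was at 87.7, 79.6 and 70.6 CPM, at 363, 323 and 279 CPM with LPS and at 234, 211 and 225 CPM with IFN-β. *Tapbp*, which encodes tapasin, was at 756, 594 and 449 CPM, at 1875, 1760.1 and 1535 CPM with LPS and at 1513, 1349 and 1325 CPM with IFN-β. The 3 groups did not overlap for any of these genes, and their order was unstimulated, IFN-β, LPS in each. *Tap1* rose 5.89-fold with LPS (2.56 ± 0.16, adjusted p = 1.62e-07, edgeR) and 3.71-fold with IFN-β (1.89 ± 0.15, adjusted p = 6.98e-06). *Tap2* rose 4.05-fold (2.02 ± 0.11, adjusted p = 6.84e-08, edgeR) and 2.81-fold (1.49 ± 0.11, adjusted p = 3.63e-06). *Tapbp* rose 2.87-fold (1.52 ± 0.17, adjusted p = 1.27e-05, edgeR) and 2.33-fold (1.22 ± 0.17, adjusted p = 0.000193). *Tapbp* shares 149 exonic bases with *Zbtb22* on the same strand and 904 with the antisense gene *Gm19412*, which had 65 to 154 counts per library, against 19890 to 64606 for *Tapbp*.

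Among the immunoproteasome genes, *Psmb9* and *Psmb10* rose about as much as the transporter genes and *Psmb8* less. *Psmb8*, which encodes the β5i subunit, was at 157, 143 and 127 CPM without stimulation, at 369.7, 344 and 316 CPM with LPS and at 299.9, 280.3 and 307 CPM with IFN-β. *Psmb9*, which encodes β1i, was at 40.3, 37.8 and 28.7 CPM, at 173, 161 and 139 CPM with LPS and at 124, 112 and 131 CPM with IFN-β. *Psmb10*, which encodes β2i, was at 63.1, 52.0 and 45.8 CPM, at 248, 227 and 197 CPM with LPS and at 185, 159.8 and 192 CPM with IFN-β. Again no groups overlapped, with LPS highest and unstimulated DCs lowest. *Psmb8* rose 2.41-fold with LPS (1.27 ± 0.09, adjusted p = 4.95e-07, edgeR) and 2.08-fold with IFN-β (1.05 ± 0.09, adjusted p = 9.71e-06). *Psmb9* rose 4.43-fold (2.15 ± 0.13, adjusted p = 1.36e-07, edgeR) and 3.44-fold (1.78 ± 0.13, adjusted p = 3.43e-06). *Psmb10* rose 4.17-fold (2.06 ± 0.13, adjusted p = 1.83e-07, edgeR) and 3.33-fold (1.74 ± 0.13, adjusted p = 3.98e-06). *Psmb9* and *Tap1* share 212 exonic bases on opposite strands, 5.79% of the exonic bases of *Psmb9* and 3.87% of those of *Tap1*, and the strand setting of the counting is not given in the sources used here.

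*Nlrc5* had the largest log2 fold change of the 10 genes in both comparisons. It was at 128, 127 and 94.0 CPM without stimulation, at 813, 800.0 and 726 CPM with LPS and at 479, 477 and 509 CPM with IFN-β. The IFN-β libraries lay close together, above all unstimulated and below all LPS libraries. *Nlrc5* rose 6.69-fold with LPS (2.74 ± 0.12, adjusted p = 1.84e-08, edgeR) and 4.19-fold with IFN-β (2.07 ± 0.12, adjusted p = 1.10e-06). Among the 16260 tested genes its log2 fold change ranked 671 with LPS and 436 with IFN-β, where rank 1 is the largest rise, and those of *H2-D1* ranked 2969 and 2376.

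In CPM per kilobase of exon, the scale on which genes can be compared with each other, unstimulated DCs held *B2m* at 2129 ± 400.3 (SD, n = 3), *H2-D1* at 671 ± 126, *H2-K1* at 555 ± 105 and *Tapbp* at 207 ± 53.1. Below these came *Psmb8* at 87.5 ± 9.03, *Psmb10* at 40.9 ± 6.69, *Tap1* at 38.5 ± 9.20, *Psmb9* at 26.3 ± 4.52, *Tap2* at 23.04 ± 2.48 and *Nlrc5* at 14.3 ± 2.41. In this order 4 neighbouring pairs differed by less than the sum of their SDs, namely *H2-D1* and *H2-K1*, *Psmb10* and *Tap1*, *Tap1* and *Psmb9*, and *Psmb9* and *Tap2*. Both genes of a pair come from the same libraries, so this sum does not decide their order. In every unstimulated library *H2-K1* was at 0.809 to 0.842 times *H2-D1*, and *Psmb9* at 0.652 to 0.755 times *Tap1*. Ratios of the other pairs were not taken. With LPS, *Tap1* at 227 ± 19.9 stood beside *Psmb8* at 211 ± 16.5, and *Nlrc5* at 96.0 ± 5.79 beside *Tap2* at 93.3 ± 12.2, differences again below the sum of the SDs. *B2m* remained the most abundant per kilobase with LPS, at 4012 ± 504, and with IFN-β, at 3391 ± 223.

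The IFN-β response was compared with the LPS response as the difference between the 2 stimulated groups, which asks whether a gene responded unequally. In edgeR's test 4 of 10 genes were lower with IFN-β than with LPS, where 23.3% of all tested genes were lower and 25.8% higher. *Nlrc5* was 0.626 times its LPS level with IFN-β (log2 -0.68 ± 0.11, adjusted p = 0.000611, edgeR), *Tap1* 0.631 times (-0.67 ± 0.15, adjusted p = 0.00387), *Tap2* 0.695 times (-0.53 ± 0.11, adjusted p = 0.00198) and *Psmb9* 0.776 times (-0.37 ± 0.12, adjusted p = 0.0307). All IFN-β libraries were below all LPS libraries for these 4 genes and also for *Tapbp*, *Psmb8* and *Psmb10*. The share of all tested genes separated in this way was not counted, so this separation adds nothing to the calls.

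The other 6 genes did not pass the threshold in that comparison. Their 95% intervals for the log2 difference, IFN-β minus LPS, were -0.67 to 0.02 for *H2-K1*, -0.60 to 0.14 for *H2-D1*, -0.57 to 0.08 for *B2m* and -0.67 to 0.06 for *Tapbp*. In this model, which has no term for the library letter, a difference of up to about these sizes cannot be told from 0. For *Psmb8* (-0.41 to -0.02, adjusted p = 0.0698, edgeR) and *Psmb10* (-0.60 to -0.05, adjusted p = 0.0521) the unadjusted interval lay below 0. With the library letter as a replicate block, all 10 genes were lower with IFN-β than with LPS (adjusted p up to 0.0209, edgeR), where 27.6% of tested genes were lower, and DESeq2 placed 7 of 10 lower, where 24.8% of tested genes were. Scaling by library size alone turned the log2 difference to 0.05 for *H2-D1*, 0.04 for *B2m* and 0.06 for *Psmb8*, none of them past the threshold, and left *Psmb9* at -0.09 (adjusted p = 0.489, edgeR). The call of *Psmb9* was also lost without LPS library A or B or IFN-β library A or B (adjusted p = 0.0935, 0.0742, 0.0596 and 0.113, edgeR).

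**Figure D3:**
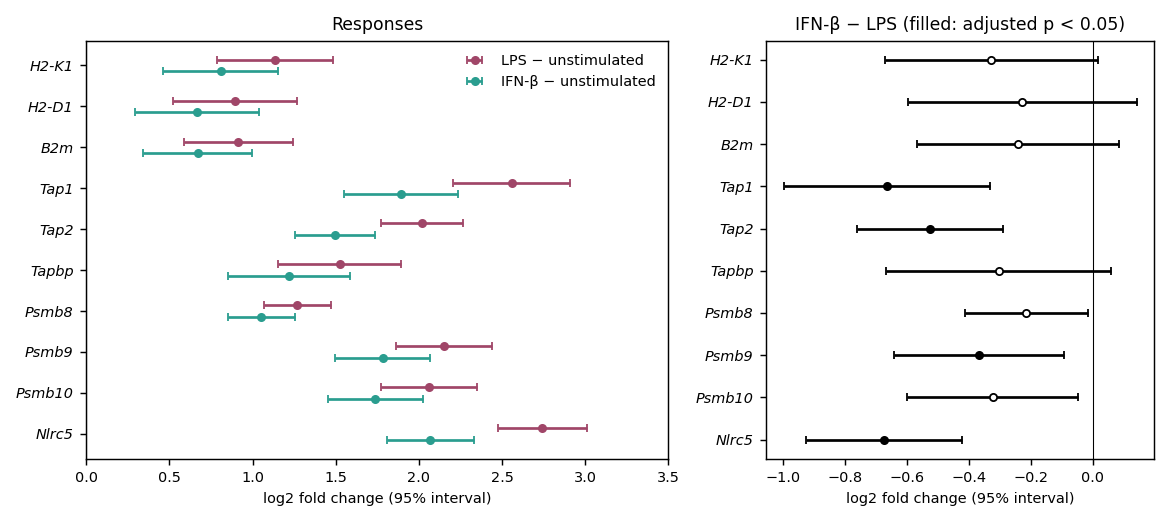
Log2 fold change with 95% interval for each of the 10 genes, for LPS and IFN-β against unstimulated DCs (left) and for IFN-β against LPS (right, filled symbols for adjusted p under 0.05). All estimates on the left lie above 0, from 0.67 to 2.74, and those on the right lie below 0, from -0.68 to -0.21, of which *H2-D1*, *B2m* and *Psmb8* turn above 0 when counts are scaled by library size alone.

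The TMM factors differed between the groups. With library size alone, the median of all tested genes shifted by -0.58 on the log2 scale for LPS and by -0.31 for IFN-β, the share of higher genes among those called went from 48.1% to 21.9% and from 50.3% to 22.3%, and for the difference of responses it went from 52.5% to 77.9%. All 10 genes kept a rise on this scale, but *H2-D1* did not pass the threshold, at log2 0.31 with LPS (adjusted p = 0.0739, edgeR) and 0.37 with IFN-β (adjusted p = 0.0537).

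The library letters ran through the members. Library C was the lowest of the 3 unstimulated libraries for 10 of 10 genes and the lowest of the 3 LPS libraries for 10 of 10, while library A was the highest unstimulated library for 10 of 10 and the highest LPS library for 9. Among IFN-β libraries, B was the lowest for 6 genes and C for 4. This order was not counted over all tested genes. The 10 genes vary together, so their counts are not 10 separate observations. In these same 3 unstimulated libraries *Isg15* had 1411, 983 and 390 counts and *Ifit1*, an interferon-induced antiviral gene, had 1607, 1152 and 496. Without the 3 libraries of letter C, the 10 genes were higher in both responses, and 7 rather than 4 were lower with IFN-β than with LPS. Of 16336 genes tested in that fit, 10013 were called with LPS and 5911 with IFN-β, 48.4% and 52.6% of them higher. Between IFN-β and LPS 6800 were called, 51.6% of them higher with IFN-β. Leaving out unstimulated library C or LPS library C also gave 7. There 8034 of 16528 and 7361 of 16612 tested genes were called, 52.7% and 51.3% of them higher with IFN-β.

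Ratios within a library do not depend on scaling. Each immunoproteasome subunit was set against the constitutive subunit it replaces, as a ratio of counts per kilobase. *Psmb5* (β5) was at 41.5, 42.2 and 43.4 CPM without stimulation, at 45.2, 49.6 and 46.6 CPM with LPS and at 34.2, 37.9 and 41.1 CPM with IFN-β, and neither change passed the threshold (adjusted p = 0.0893 and 0.0907, edgeR). *Psmb6* (β1) was at 107, 104 and 91.4 CPM, at 268, 267 and 224 CPM with LPS and at 129.6, 143 and 147 CPM with IFN-β. *Psmb7* (β2) was at 71.6, 69.8 and 63.6 CPM, at 109, 110.4 and 106 CPM with LPS and at 81.7, 83.6 and 82.6 CPM with IFN-β. *Psmb6* and *Psmb7* thus rose with both stimuli, 2.51-fold and 1.59-fold with LPS and 1.39-fold and 1.21-fold with IFN-β (largest adjusted p = 0.00362, edgeR). All 3 constitutive genes were called lower with IFN-β than with LPS (largest adjusted p = 0.00473, edgeR), where 23.3% of all tested genes were lower. The thymic subunit gene *Psmb11* did not pass the filter.

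The ratio of *Psmb8* to *Psmb5* was 1.86 ± 0.233 (SD, n = 3) without stimulation, 4.03 ± 0.424 with LPS and 4.35 ± 0.427 after IFN-β. That of *Psmb10* to *Psmb7* was 0.692 ± 0.0765, 1.83 ± 0.193 and 1.92 ± 0.195. For both pairs the stimulated libraries were above all unstimulated ones and the LPS and IFN-β libraries overlapped. Within each library letter, however, the log2 ratio of *Psmb8* to *Psmb5* was higher with IFN-β than with LPS, by 0.10, 0.10 and 0.14 for A, B and C, whereas for *Psmb10* to *Psmb7* these differences were -0.02, -0.10 and 0.33. *Psmb9* to *Psmb6* was 0.208 ± 0.0194 without stimulation, 0.368 ± 0.0128 with LPS and 0.519 ± 0.0497 after IFN-β, and here the IFN-β libraries (0.465 to 0.563) were all above the LPS libraries (0.356 to 0.381), a 1.41-fold higher ratio. For this ratio the stimulated groups stood in the reverse order of the level of *Psmb9* itself, with *Psmb6* at 0.552 times and *Psmb9* at 0.776 times its LPS level in IFN-β-treated DCs. Every such separation gave an exact two-sided permutation p of 0.1, the smallest value possible (Benjamini-Hochberg adjusted 0.129 over 9 comparisons), and an exact paired permutation test over 3 letters cannot go below 0.25. Of the 100-base windows of *Psmb5* transcripts, 22.2% also occur in another gene, most often *Gm3375*, so that its level is less certain.

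Ratios between partner genes moved less. *Tap1* to *Tap2* was 1.65 ± 0.245 without stimulation, 2.44 ± 0.109 with LPS and 2.21 ± 0.0539 after IFN-β, with no overlap between any groups. *Psmb9* to *Tap1*, the pair with adjoining start sites, was 0.693 ± 0.0543, 0.515 ± 0.0105 and 0.633 ± 0.0360, lower with LPS than in both other groups and overlapping between IFN-β and unstimulated DCs, although lower with IFN-β in 3 of 3 letters (log2 -0.06, -0.16 and -0.17). *H2-K1* to *H2-D1* was 0.827 ± 0.0170 without stimulation, 0.980 ± 0.0188 with LPS and 0.917 ± 0.0528 after IFN-β, with both stimulated groups above the unstimulated one and IFN-β below LPS in 3 of 3 letters (log2 -0.18, -0.09 and -0.02), where the groups overlapped. *B2m* to the sum of *H2-K1* and *H2-D1* was 1.74 ± 0.00518, 1.64 ± 0.140 and 1.67 ± 0.0333, with LPS libraries overlapping the unstimulated ones and IFN-β libraries below them. Exact permutation p was 0.1 for each pair of groups without overlap (adjusted 0.15 over 12 comparisons).

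**Figure D4:**
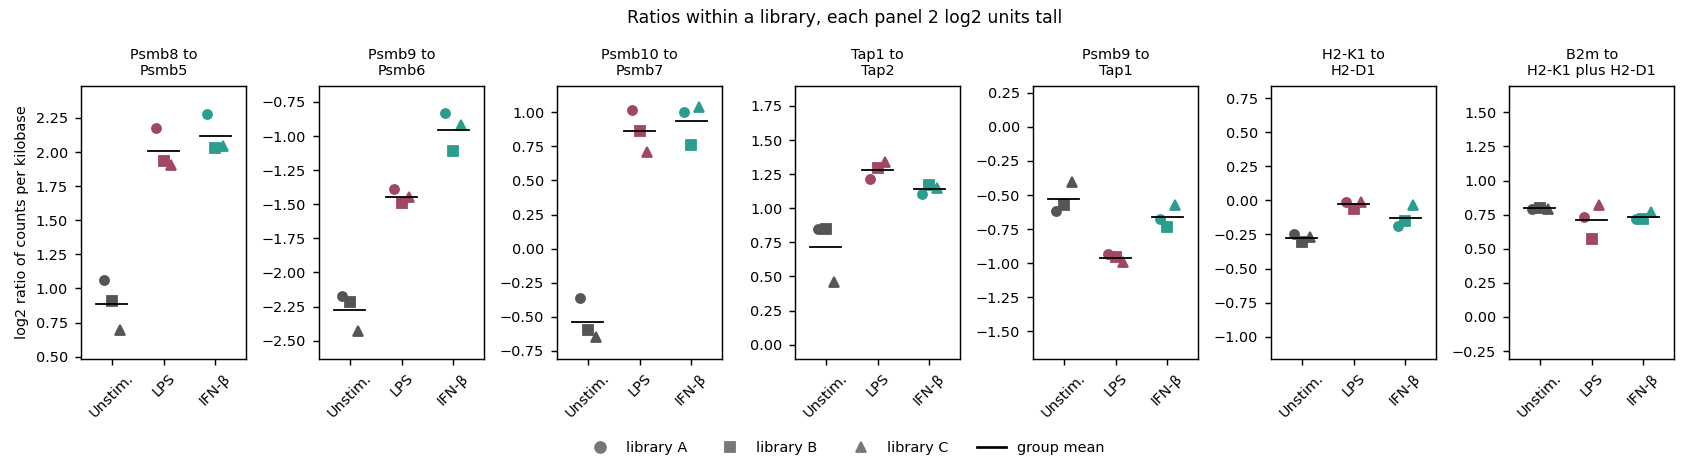
Log2 ratio of counts per kilobase within each of the 9 libraries for 7 gene pairs, with 1 panel for each pair, axes of equal height, symbols for library letters and a line for the group mean (n = 3). The 3 immunoproteasome ratios are higher in all stimulated than in all unstimulated libraries, and only for *Psmb9* to *Psmb6* among these 3 are the IFN-β libraries separate from the LPS libraries, although *Psmb8* to *Psmb5* is higher with IFN-β than with LPS for each letter.

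Most of the other class I heavy chain genes also rose. Of 15 listed, 13 were tested, and 11 rose and 1 fell with LPS and with IFN-β alike (edgeR's quasi-likelihood test), with a median log2 fold change of 1.80 and 1.26. Of all tested genes 32.8% were higher and 35.4% lower with LPS, and 23.6% and 23.3% with IFN-β. The rising genes include *H2-K2* and *H2-T10*, which GENCODE annotates as a transcribed unprocessed pseudogene and a polymorphic pseudogene. *H2-T22* and *H2-T10* were the largest rises with LPS, at 7.06-fold (2.82 ± 0.19, adjusted p = 3.66e-07, edgeR) and 8.40-fold (3.07 ± 0.19, adjusted p = 1.36e-07). *H2-T22* also led with IFN-β, 5.87-fold, with *H2-T10* at 4.18-fold, although 12.4% and 9.66% of their 100-base windows occur in another gene, mostly in each other. *Mr1*, which presents vitamin metabolites, fell 1.92 log2 units with LPS (adjusted p = 9.25e-07, edgeR) and was at -0.38 ± 0.14 with IFN-β (adjusted p = 0.0432), where its libraries overlapped the unstimulated ones. *H2-Q1*, the only tested gene of the list not called in either response, had -0.87 ± 0.57 with LPS and 1.12 ± 0.43 with IFN-β. It was called higher with IFN-β than with LPS (log2 1.98 ± 0.51, adjusted p = 0.00842, edgeR), with 16 to 27 counts in IFN-β libraries and 2 to 6 in LPS libraries.

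Of the helpers of peptide loading in the endoplasmic reticulum, 2 of 7 rose and 1 fell with LPS, where 32.8% of all tested genes were higher and 35.4% lower. With IFN-β 3 rose and 1 fell, where 23.6% were higher and 23.3% lower. *Tapbpl*, a tapasin-related peptide editor, rose 4.10-fold with LPS and 3.49-fold with IFN-β (adjusted p = 6.79e-08 and 1.44e-06, edgeR), and *Erap1*, the aminopeptidase that trims peptides there, rose 1.86-fold and 1.66-fold. *Uggt1*, which checks glycoprotein folding, fell by 0.91 and 0.31 on the log2 scale. The general chaperone genes *Calr* and *Canx* were not called in either response, nor was *Ganab*. *Pdia3* rose with IFN-β only in the test, at 0.30 ± 0.09 (adjusted p = 0.019, edgeR), against 0.00 ± 0.09 with LPS, a difference that itself passed (adjusted p = 0.0191).

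*Psme1* and *Psme2*, which encode the PA28 activator of the proteasome, rose 3.13-fold and 3.85-fold with LPS and 2.14-fold and 2.21-fold with IFN-β. *Pomp*, the proteasome assembly factor, rose 1.61-fold and 1.40-fold. All 3 were lower with IFN-β than with LPS (adjusted p = 0.000713, 4.66e-05 and 0.0204, edgeR), where 23.3% of all tested genes were lower. In *Psme2*, 40.8% of the 100-base windows also occur in another gene, most often *Psme2b*. Of 7 listed peptidases outside the endoplasmic reticulum, 4 rose and 1 fell with LPS and 3 rose and 1 fell with IFN-β. Over all tested genes 32.8% were higher and 35.4% lower with LPS, and 23.6% and 23.3% with IFN-β. *Lap3*, a leucine aminopeptidase, rose 6.16-fold and 4.20-fold and *Lnpep*, an aminopeptidase of endosomal vesicles, 2.18-fold and 1.83-fold, while *Thop1*, an endopeptidase that degrades peptides, fell by 1.73 and 1.19 on the log2 scale.

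Of 8 genes listed as partners of NLRC5 at the promoter or, for *Ciita*, as its relative, 3 rose and 2 fell with LPS. With IFN-β 1 rose and 2 fell. Among all tested genes 32.8% were higher and 35.4% lower with LPS, and 23.6% and 23.3% with IFN-β. These counts do not set the list apart from all tested genes. *Rfx5* rose 1.95-fold and 1.68-fold (adjusted p = 2.28e-06 and 5.37e-05, edgeR). *Rfxap* fell by 0.55 and 0.47 and *Rfxank* by 0.76 and 0.26 on the log2 scale, and *Nfya* rose 1.20-fold with LPS. *Ciita*, the class II transactivator related to NLRC5, was at 74.8 to 92.4 CPM in unstimulated, 63.9 to 95.5 CPM in LPS-activated and 70.6 to 88.3 CPM in IFN-β-treated DCs, and all 3 groups overlapped (log2 -0.09 ± 0.14 and -0.15 ± 0.14, not called).

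The upstream factors *Stat2*, *Irf1* and *Irf9*, which carry interferon signals to the nucleus or are induced by them, rose with both stimuli in 3 of 3 cases. Of all tested genes, 32.8% were higher with LPS and 23.6% with IFN-β. *Stat2* rose 5.59-fold with LPS and 4.44-fold with IFN-β, *Irf1* 5.29-fold and 4.04-fold and *Irf9* 2.30-fold and 1.67-fold (largest adjusted p = 0.000353, edgeR). Only *Irf9* of these 3 was called lower with IFN-β than with LPS (adjusted p = 0.00565, edgeR).

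The neighbours in the MHC moved in both directions. Of 6 genes next to the *Tap* and *Psmb* cluster, 3 rose and 3 fell with LPS, and 1 rose and 1 fell with IFN-β. All tested genes also did so, with 32.8% higher and 35.4% lower with LPS and 23.6% and 23.3% with IFN-β. Movement in both directions is thus no trait of these neighbours. *Brd2*, a bromodomain gene, rose 2.17-fold and 1.51-fold. *H2-DMa*, *H2-DMb1* and *H2-DMb2*, which encode the class II peptide exchange factor, fell by 1.10, 0.46 and 0.66 on the log2 scale with LPS, and with IFN-β only *H2-DMb2* of these fell, by 0.46. *H2-Ob* rose 1.64-fold and the class II chain gene *H2-Ab1* 1.37-fold with LPS, the latter with overlapping libraries, and neither was called with IFN-β.

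**Figure D5:**
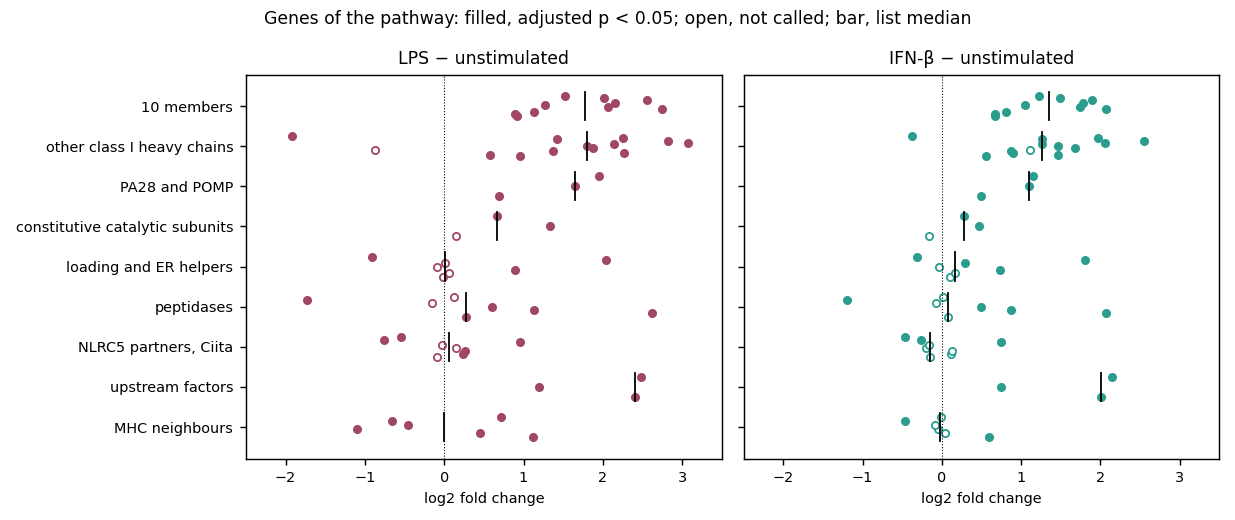
Log2 fold change of each tested gene in 9 lists, for LPS (left) and IFN-β (right) against unstimulated DCs, with filled symbols for adjusted p under 0.05 and a bar for the list median. The medians of the 10 genes (1.77 and 1.36) and of the other class I heavy chains (1.80 and 1.26) lie well to the right of 0. Those of the NLRC5 partners with *Ciita* and of the MHC neighbours lie near 0, as does the median over all tested genes (-0.04 and -0.02).

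The 10 genes also varied together over the 9 libraries, each correlating with the mean profile of the other 9 at Pearson r of 0.951 (*H2-D1*) to 0.995 (*Tap1*). Outside the list, the genes whose log2 CPM over the 9 libraries was most like the members' mean profile were *4933412E12Rik*, *Fabp3*, *Gsdmd*, *Ogfr*, *Trim25*, *Hmgn3*, *Rnf114*, *Chmp4b*, *Sap30* and *C130026I21Rik*, with r of 0.997 to 0.998. These values describe 9 libraries in 3 groups and share the group means and library letters. Among them, *Gsdmd*, the pore-forming gasdermin, was at means of 85.5, 206 and 164 CPM in unstimulated, LPS-activated and IFN-β-treated DCs, and *Trim25*, a ubiquitin ligase, at 203, 681 and 523 CPM.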

How the data were processed

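RNA from 9 libraries was made with rRNA removal and sequenced with 100-base paired-end reads. The authors trimmed reads with Trim Galore 0.6.0, mapped them with STAR 2.7.8a per the labels (the methods of the study name another release) to GRCm38 and deposited raw counts per gene, with no normalization. How strand was treated is not given in the sources used here. Rows with no gene symbol held 5.37% of the counts and stayed in the library sizes and tests, since they carry a gene identifier. Counts were filtered with filterByExpr, scaled with TMM and tested with edgeR 4.0.16 (R 4.3.3) in 1 quasi-likelihood model over all 9 libraries with Benjamini-Hochberg adjustment over 16260 genes. The SE was taken from the log2 fold change and its F statistic, and intervals use the t quantile. The model was tried on simulated counts with a common dispersion and no effect of the library letter. That trial does not test the model under the pairing of letters described below.

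The members and lists were chosen with earlier results of these data known. Named are the 10 members, all genes of lists of at most 6, the largest called changes of longer lists, and the 10 most correlated genes. *H2-Q1*, *Pdia3*, *Calr*, *Canx*, *Ganab* and *Ciita* were named after their values were seen. 1 gene of the upstream factor list is not reported here. Libraries with the same letter deviated together from their group means (9 pairs, correlation across genes 0.115 to 0.470, against -0.400 to 0.0279 for 18 pairs with different letters). The letters were therefore taken to pair the libraries, as a property of the data, since the labels do not say what they mark. This pairing entered only the replicate block, an alternative fit, and the comparisons of ratios within each letter. The main model, with its calls and intervals, had no term for the letter, and the exact tests between groups were unpaired. No pair of libraries of 1 group agreed within sampling noise. Ratios were compared by exact permutation tests. Alternatives were DESeq2 1.42.0, other scalings and filters, the replicate block, fits of the compared groups alone and leaving out each library.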

Additional observations from a re-analysis of the deposited data

How the results depend on the processing

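The LPS and IFN-β rises of the 10 genes kept their direction in all 80 values of each response (8 alternative settings for 10 genes) and their side of the threshold in 79 of 80, the exception being *H2-D1* under library-size scaling (log2 0.31 and 0.37), and in all 90 values that left out 1 library. The comparison of IFN-β with LPS depended on the fit. The number of genes called lower was 4 as reported, 7 with DESeq2, 10 with the replicate block, 6 with no filter or with only the 2 groups compared, 5 with upper-quartile factors, 4 with at least 10 counts in every library, 3 under library-size scaling, 7 without the 3 libraries of letter C (an alternative chosen after seeing the data), and 3 to 7 when 1 library was left out. It was 3 without LPS library A, LPS library B, IFN-β library A or IFN-β library B, each of which left *Psmb9* above the threshold (adjusted p up to 0.113, edgeR). Of all tested genes, 23.3% were lower in the reported fit, 24.8% with DESeq2 and 27.6% with the replicate block. That share was not counted for the other fits, so their counts have no such share beside them. Under scaling by library size alone the log2 difference turned to 0.052 for *H2-D1*, 0.038 for *B2m* and 0.063 for *Psmb8*, and *Psmb9* lost its call (-0.089, adjusted p = 0.489, edgeR). This scaling moves the median of all genes by 0.27. The replicate block changed no other call of the 10 genes. Leaving out the division by length cannot change a group difference in a ratio of single genes. With 3 libraries a group, exact permutation tests cannot go below p = 0.1. Intervals reflect these libraries only, and counts on shared or overlapping exons (*Tap1*, *Psmb9*, *Tapbp*, *H2-D1*) are less certain.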
